A study of Canis lupus familiaris with 15 samples.

Results

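The response of Madin-Darby canine kidney (MDCK) cells to hepatocyte growth factor (HGF) was described across all genes measured on 8 of the study's 15 Affymetrix canine arrays, of which 4 held RNA of cells given HGF and 4 held RNA of cells left in medium alone (Control). The arrays were chosen by the group in their titles, and no measured value entered that choice. Of 42924 probe sets that are not controls of the array maker, the 24904 (58%) that reached a log2 intensity of 4 on 3 or more arrays of the 15 were kept. They covered 10287 genes, each represented by its brightest probe set over all arrays.

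Cells of both groups were kept on Transwell filters, a porous support on which they form a polarised layer, for 7 days. The HGF group then received 100 ng/ml HGF for 24 h, and the Control group received no factor. The other 7 arrays came from cells given HGF together with a compound spelled PD09859 (50 uM, n = 4) or UO126 (10 uM, n = 3), and they entered only the shared estimate of the spread. MDCK is an established line of dog kidney epithelium, so the values describe 1 line at 1 dose and 1 time. According to the labels the replicates are biological, but separate cultures are not mentioned, so a p-value here rests on the spread among arrays, which may be technical.

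HGF is secreted by mesenchymal cells and binds the receptor tyrosine kinase MET on epithelial cells. Active MET recruits adaptor proteins that start the RAS-MAPK, PI3K-AKT and STAT cascades, and these alter transcription, cell cycle entry and the cytoskeleton. In MDCK cells HGF is known for loosening cell contacts, for scattering colonies and for starting tubule formation in collagen gels.

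The 8 arrays were alike in brightness. Median intensities lay between 40.99 and 41.73 on the Control arrays and between 40.26 and 40.79 on the HGF arrays, and 57.1% to 57.3% of probe sets on each array lay at or above the filter. GCRMA, the method behind the deposited values, quantile normalizes the arrays, so this likeness follows at least in part from the processing. Correlations between arrays over all kept probe sets ran from 0.9942 to 0.9974 within the groups and from 0.9372 to 0.9455 between them. The array maker's control probe sets for the 3' and 5' ends of beta-actin, whose ratio is used as a sign of RNA quality, moved with the group. The 3' minus 5' log2 difference was 0.434 ± 0.0882 (SD, n = 4) on Control and -0.297 ± 0.0361 (n = 4) on HGF arrays for the first actin pair, with no overlap (exact permutation p = 0.0286, the smallest that 4 against 4 arrays can give, adjusted p = 0.0429 over 6 pairs). The other actin pairs differed by -0.758 and -0.485, each with the same exact p, and the 5' actin probe set of the first pair itself had a mean log2 intensity of 14.3 on Control and 15.5 on HGF arrays. GAPDH pairs differed by -0.0589 (exact permutation p = 0.114) and -0.0823 (exact permutation p = 0.0286), and the EF1a pair by -0.241 (exact permutation p = 0.143). The part of these ratios in the results was not tested.

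The labelled cell type was checked against its markers. All 7 annotated epithelial markers were kept, and EPCAM and the keratins KRT8 and KRT18 had Control means of 15.3, 15.1 and 14.9 on the log2 scale. CDH16, CDH1, PAX8 and PAX2 had Control means of 10.8, 9.8, 9.15 and 6.48. Of 8 collecting duct and loop of Henle markers 4 were kept, with Control means of 9.27 for ATP6V1B1, 8.04 for AQP3, 7.73 for UMOD and 4.18 for SCNN1A, and AQP2, SLC12A1, SLC4A1 and SLC26A4 were below the filter. Also below it were 5 of 9 fibroblast and smooth muscle markers (COL1A1, COL1A2, LUM, DCN, ACTA2), 2 of 5 endothelial markers (TEK, VWF) and 2 of 6 annotated leukocyte markers (PTPRC, ITGAM). The others of these types were kept, some with Control means above that of PAX2. These means were 6.6 for PDGFRA, 6.06 for MYH11, 5.88 for COL3A1 and 5.81 for PDGFRB. Endothelial CDH5, PECAM1 and KDR had 8.23, 7.15 and 4.38, and leukocyte CD4, CD3E, CD14 and CD68 had 7.38, 6.04, 4.11 and 3.25. In bulk RNA a smaller share of cells of 1 kind cannot be told apart from less RNA in each cell.

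HGF changed most genes by a little and a smaller number by a lot. Of 24904 probe sets 55.6% passed an adjusted p of 0.05 (limma, Benjamini-Hochberg over all probe sets kept), and of 10287 genes 5732 passed (55.7%), 2882 higher (28%) and 2850 lower (27.7%). These shares are the background for every count below. The median size of a called change was 0.575 on the log2 scale, against a median standard error (SE) of 0.0812 and a median SD between arrays of 0.0911 in Control and 0.107 in HGF. The smallest called change was 0.0565, so a call alone says little about size. Against a minimum change of 2-fold (limma's treat test) 8.48% of probe sets and 888 genes (8.63%) passed, 510 higher and 378 lower. In 5388 genes (52.4%) the 4 HGF arrays did not overlap the 4 Control arrays. Over all genes the median change was -0.00614. The deposited values were quantile normalized, so this small median and the near-even split of calls follow at least in part from the processing.

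Larger changes were more often rises. Among called genes 750 rose and 661 fell by at least 1 on the log2 scale, 244 rose and 146 fell by at least 2, 86 rose and 49 fell by at least 3, and 34 rose and 17 fell by at least 4. Changes of at least 5 were 13 up and 5 down. From a mean log2 level of 4 upward the share of genes called climbed with brightness. It was 23.2% of 1773 genes at 4 to 6, 44.6% at 6 to 8 and 64.6% at 8 to 10. At 10 to 12 it was 75.1%, and at 12 or more 77.7% of 993 genes. The median SE was 0.0758, 0.102, 0.0887, 0.0698 and 0.0506 in these 5 ranges of level, in order of brightness. Shares past the treat test were 5.08%, 9.12%, 9.81%, 9.88% and 6.75%, so they were lowest in the dimmest of these ranges and second lowest in the brightest. Under a level of 4 lay 80 further genes, which do not follow this order. Of them 56.2% were called and 21.2% passed the treat test, with a median SE of 0.159. Of 4555 genes that did not pass, 2362 had a 95% interval within 0.25 of no change, and 23 had an interval reaching past 1.

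**Figure D1:**
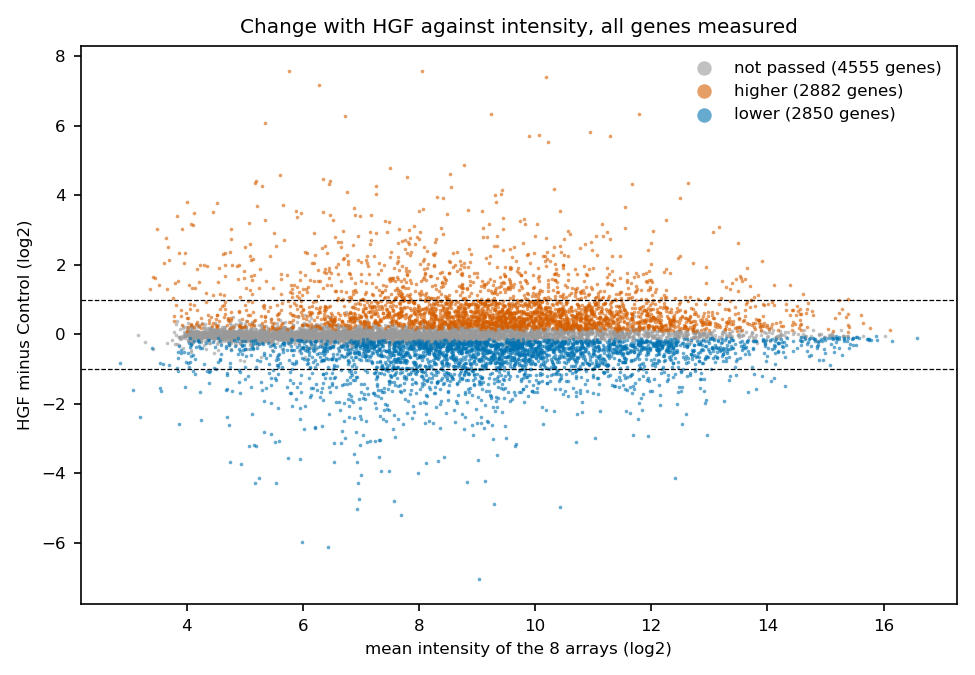
Change with HGF (HGF minus Control, log2) against the mean log2 intensity of the 8 arrays for each of 10287 genes. Orange points are the 2882 genes higher, blue points the 2850 lower and grey points the 4555 that did not pass; dashed lines mark a change of 1 either way, and coloured points lie closer to 0 at high intensity than at low.

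The largest changes measured well above the floor on both sides (both group means at least 6) included extracellular and signalling genes. Only genes whose arrays did not overlap between the groups were taken here, for rises and for falls. The rises were led by TIMP1, S100A2, PTGS2, SNAI2, SERPINE2 and CDKN1A, each above 5. RGS2, which speeds the shut-off of Gq signalling, read 8.40, 8.25, 8.47 and 8.58 on the Control arrays and 14.10, 14.13, 14.13 and 14.20 on the HGF arrays. The difference was 5.72 ± 0.10 (adjusted p = 2.15e-14). FABP3, a fatty acid carrier of muscle and heart, read 7.60, 7.14, 7.66 and 7.38 on the Control arrays and 12.83, 13.13, 12.98 and 13.03 on the HGF arrays, a rise of 5.55 ± 0.15. Further rises were 4.87 ± 0.14 for ENTPD3, an ectonucleotidase, 4.17 ± 0.08 for the intestinal cadherin CDH17, 4.17 ± 0.12 for the copper-dependent ferroxidase HEPH and 4.62 ± 0.26 for the unnamed locus LOC491922. The laminin chain LAMA3 and its receptor subunit ITGA6 rose together. LAMA3 read 10.22, 10.56, 10.34 and 10.73 on the Control arrays and 14.71, 14.76, 14.86 and 14.93 on the HGF arrays, a difference of 4.35 ± 0.12 (adjusted p = 1.45e-12). ITGA6 read 9.50, 9.57, 9.34 and 9.57 on the Control arrays and 13.79, 13.71, 13.90 and 13.94 on the HGF arrays, a difference of 4.34 ± 0.07, although 1 of 3 further ITGA6 probe sets did not pass (0.17).

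The deepest falls measured on both sides included developmental and transport genes. RIPPLY1, a repressor known from somite formation, and RANBP3L were lowest at -4.96 ± 0.20 and -4.88 ± 0.13. TXNIP, an inhibitor of thioredoxin and of glucose uptake, read 14.41, 14.42, 14.52 and 14.53 on the Control arrays and 10.02, 10.35, 10.74 and 10.25 on the HGF arrays. Its difference was -4.13 ± 0.11 (adjusted p = 9.34e-13). DHRS3, which reduces retinal, fell by 4.25 ± 0.20, and the organic cation transporter SLC22A2, a carrier of the basolateral membrane of proximal tubule, fell by 3.63 ± 0.10. NDRG2 fell by 3.60 ± 0.09, the actin-associated SORBS2 fell by 3.16 ± 0.14 and the GABA receptor subunit GABRA3 fell by 3.47 ± 0.16. EGF, whose precursor is made in the distal tubule, read 12.48, 12.56, 12.47 and 12.56 on the Control arrays. On the HGF arrays it read 9.36, 9.24, 9.89 and 9.64, a difference of -2.99 ± 0.11. EFCAB10 (-4.22 ± 0.21), OSCP1 (-3.71 ± 0.39), LOC477540 (-3.52 ± 0.17) and LOC480492 (-3.10 ± 0.09) were also among the 15, as were TSPAN1 and CDH16, described further on.

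Among genes bright in both groups (means of at least 10, where 948 were higher and 936 lower) the rises were led by LAMA3, described above. ERO1A, the oxidase that forms disulfides in the endoplasmic reticulum, read 10.60, 10.58, 10.50 and 10.44 on the Control arrays and 14.66, 14.31, 14.34 and 14.54 on the HGF arrays, a rise of 3.94 ± 0.08. PFKFB3, which makes the activator of phosphofructokinase, rose by 3.05 ± 0.17, the glucose transporter SLC2A1 by 2.64 ± 0.08 and the quinone reductase NQO1 by 2.44 ± 0.10. ERRFI1, a feedback inhibitor of the EGF receptor, rose by 2.94 ± 0.13, the calcium-binding S100A14 by 2.97 ± 0.08 and the membrane protein MYADM by 2.62 ± 0.10. The other two, TUBB2A and F3, are described further on. The falls in this group, led by TXNIP, included metabolic genes. CYP4A11, a fatty acid omega-hydroxylase of proximal tubule, read 14.37, 14.37, 14.34 and 14.49 on the Control arrays and 11.30, 10.92, 11.92 and 11.90 on the HGF arrays, a difference of -2.88 ± 0.16. GGT1, the gamma-glutamyltransferase of the brush border, fell by 2.19 ± 0.09, PCBD1, a cofactor-recycling enzyme, fell by 2.28 ± 0.12, and APOBEC1, an RNA-editing deaminase, fell by 2.27 ± 0.11. CCDC148 fell by 2.58 ± 0.08 and the dynein light chain DYNLRB2 fell by 2.22 ± 0.07.

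Some genes crossed from below the filter to a clear signal or the reverse. All 4 arrays of 1 group lay under a log2 intensity of 4 and all 4 of the other at 6 or more in 12 genes that appeared with HGF and 8 that disappeared. The deposited summary presses dim probe sets towards a floor, so the sizes of these changes depend on its background estimate. CDH2, N-cadherin, read 3.31, 3.07, 3.10 and 3.12 on the Control arrays and 7.25, 7.99, 7.35 and 7.13 on the HGF arrays. TGFB2, a ligand of the TGF-beta family, read 2.86, 2.86, 3.16 and 3.06 on the Control arrays and 6.95, 7.21, 7.66 and 7.59 on the HGF arrays, and INHBA, the activin A subunit, read 2.71, 2.70, 2.69 and 2.70 on the Control arrays and 6.25, 6.31, 6.16 and 6.16 on the HGF arrays. EDIL3, an integrin-binding matrix protein, read 3.22, 2.86, 3.83 and 3.34 on the Control arrays and 8.16, 7.99, 7.48 and 8.02 on the HGF arrays. The synaptic vesicle adaptor SNAP91, the mitotic gene DEPDC1, the retinol dehydrogenase DHRS9 and the channel family member ANO4 made up the rest with FGFBP1, TFPI2, DSG3 and ISG20.

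The 8 genes that disappeared included kidney-related genes. MME, neprilysin, a peptidase of the proximal brush border, read 6.87, 6.89, 6.55 and 6.45 on the Control arrays and 3.78, 3.78, 2.55 and 3.78 on the HGF arrays. DACH1, a transcriptional cofactor in development, read 7.13, 7.50, 7.29 and 7.33 on the Control arrays and 3.36, 2.60, 2.80 and 3.38 on the HGF arrays. CLTRN, collectrin, a partner of amino acid transporters, read 9.64, 9.40, 9.32 and 9.62 on the Control arrays and 3.22, 3.26, 3.75 and 3.28 on the HGF arrays. The others were TEX26, CLHC1, the calcium-binding GCA, RGS22 and LOC483842.

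**Figure D2:**
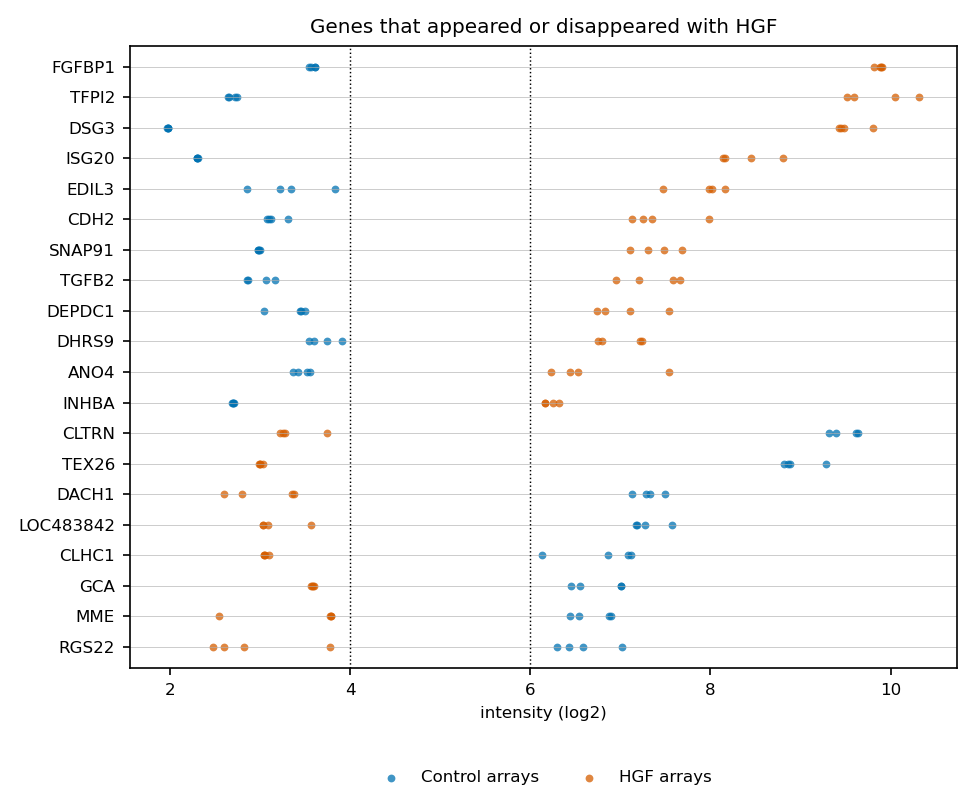
Log2 intensity on each of the 4 Control arrays (blue) and 4 HGF arrays (orange) for the 12 genes that appeared with HGF (upper rows) and the 8 that disappeared (lower rows). The dotted lines mark 4 and 6; each gene has all arrays of one group left of 4 and all arrays of the other right of 6.

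Beyond single genes, 49 lists of 2040 genes were read, of which 1510 were measured. A list near 28% higher and 27.7% lower is no result about that list. These shares are of all genes. The lists were not matched for brightness, with which the called share climbed from a log2 level of 4 upward.

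**Figure D3:**
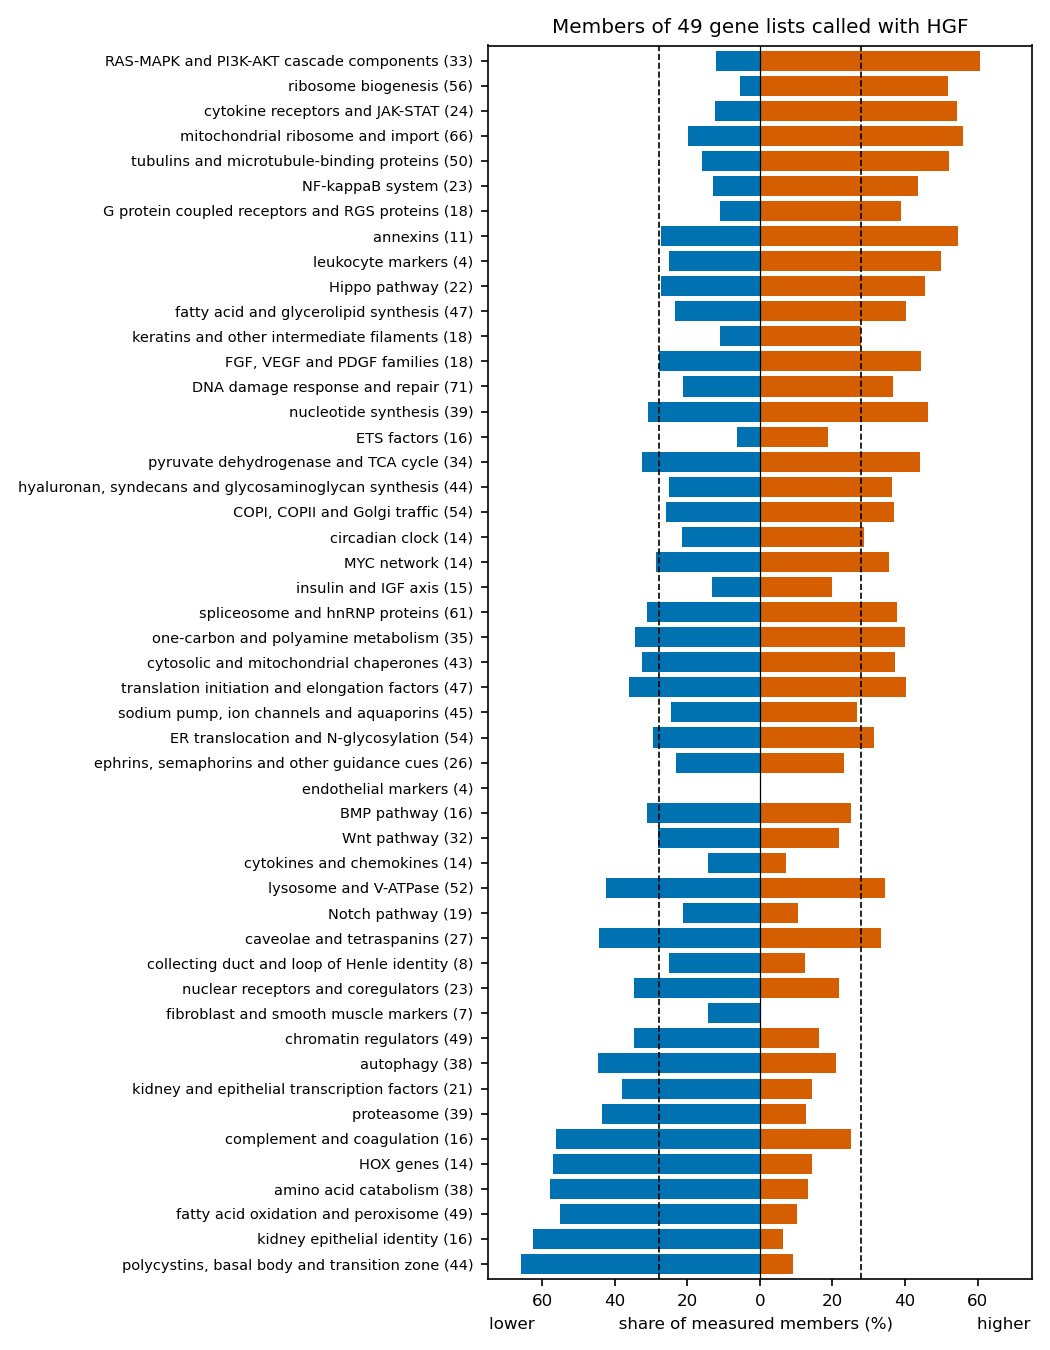
Share of measured members called higher (orange, to the right) and lower (blue, to the left) with HGF in each of the 49 gene lists, with the number measured after each name. Dashed lines give the share over all genes, 28% higher and 27.7% lower; components of the RAS-MAPK and PI3K-AKT cascades extend furthest to the right and the polycystin, basal body and transition zone list furthest to the left.

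Components of the cascades below MET were mostly higher. Of 33 measured RAS-MAPK and PI3K-AKT components 20 were higher and 4 lower, and the median change was 0.505. MAP4K4, a kinase that drives JNK signalling and cell migration, read 8.31, 8.003, 8.03 and 7.95 on the Control arrays and 10.43, 10.57, 10.69 and 10.81 on the HGF arrays, a rise of 2.55 ± 0.12. MAP3K5, the stress kinase ASK1, rose by 1.86 ± 0.23, the GTPases RRAS and HRAS by 1.48 ± 0.04 and 1.08 ± 0.19, and the catalytic subunit PIK3CA by 0.94 ± 0.10. BRAF rose by 0.57 ± 0.16, MAP2K1 (MEK1) by 0.42 ± 0.04 (2 further probe sets did not pass, 0.16 and -0.0038), AKT1 by 0.50 ± 0.16 and AKT2 by 0.74 ± 0.08. Of the members that fell, MAP3K1 changed most. It read 11.27, 11.31, 11.33 and 11.36 on the Control arrays and 9.30, 9.75, 9.91 and 9.85 on the HGF arrays, a difference of -1.61 ± 0.12. The lipid phosphatase INPPL1 fell by 0.64 ± 0.13 and the PI3K regulatory subunit PIK3R1 fell by 0.75 ± 0.10. MAP2K2 (0.01) and MAPK14 (-0.05) did not pass.

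In the list of cytokine receptors and JAK-STAT proteins 13 of 24 were higher and 3 lower, and the median change was 0.322. The interferon gamma receptor subunits IFNGR2 and IFNGR1 rose by 1.43 ± 0.06 and 0.86 ± 0.07. The gp130 family members LIFR, IL6ST and OSMR rose by 1.07 ± 0.18, 0.77 ± 0.09 and 0.60 ± 0.07, and the interleukin 1 receptor accessory protein IL1RAP by 1.24 ± 0.18. SOCS2, a feedback inhibitor of JAK-STAT signalling, read 6.69, 6.11, 6.72 and 6.22 on the Control arrays and 10.57, 10.63, 10.68 and 10.83 on the HGF arrays, a rise of 4.24 ± 0.14. The transcription factors STAT3 and STAT2 fell by 0.23 ± 0.07 and by 0.41 ± 0.08. Of 14 measured cytokines and chemokines 1 was higher (CSF2, 0.80 ± 0.22, from near the filter level) and 2 were lower, the chemokine CXCL16 at -0.93 ± 0.09 and the death ligand TNFSF10 at -0.23 ± 0.07.

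The NF-kappaB system tended upward, with 10 of 23 higher and 3 lower (median 0.235). TNFAIP2, a TNF-induced gene of membrane protrusions, rose by 2.65 ± 0.30, the apoptosis inhibitor BIRC3 by 1.92 ± 0.17 and the adhesion molecule ICAM1 by 0.80 ± 0.11. The subunit REL fell by 0.57 ± 0.12. The kinase CHUK fell by 0.28 ± 0.11, and it did not pass without Control replicate 1 or 3 or HGF replicate 1 or 2, where the change ran from -0.285 to -0.161.

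In the FGF, VEGF and PDGF families 8 of 18 were higher and 5 lower. VEGFA, the main angiogenic factor, read 10.63, 11.08, 10.89 and 10.94 on the Control arrays and 12.55, 12.51, 12.45 and 12.59 on the HGF arrays, a rise of 1.65 ± 0.12. FGF1 rose by 2.06 ± 0.21, ANGPTL4, a lipoprotein lipase inhibitor, by 2.33 ± 0.17 and VEGFC by 0.73 ± 0.14. All 3 measured FGF receptors fell. FGFR2 read 12.58, 12.52, 12.57 and 12.66 on the Control arrays and 11.26, 11.16, 11.37 and 11.25 on the HGF arrays, a difference of -1.32 ± 0.06, and the differences of FGFR3 and FGFR4 were -1.26 ± 0.15 and -1.08 ± 0.11. The ligands PDGFC and PDGFD also fell, at -2.07 ± 0.35 and -0.86 ± 0.14. PDGFC had a group mean under 6. In the insulin and IGF axis 3 of 15 were higher and 2 lower. The binding protein IGFBP6 rose by 1.91 ± 0.06, while IGFBP4 and IGFBP7 fell by 1.18 ± 0.15 and by 0.58 ± 0.03.

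Among receptors coupled to G proteins and their regulators 7 of 18 were higher and 2 lower. With a stricter filter, log2 of at least 6 on 4 of the 8 arrays, 4 of 10 were higher and 2 lower. RGS17 rose by 3.35 ± 0.15, the orphan receptor GPRC5A by 3.17 ± 0.11 and the thrombin receptor F2R by 1.49 ± 0.19. F2RL1, the second protease-activated receptor, went the other way, at 8.57, 8.27, 8.54 and 8.56 on the Control arrays and 6.62, 7.06, 7.15 and 6.64 on the HGF arrays, a difference of -1.62 ± 0.12.

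Developmental pathways had no common direction. In the Wnt list 7 of 32 were higher and 9 lower, which became 8 and 7 under quantile normalization and under median centring. The receptor FZD2 and the kinase GSK3B rose by 1.66 ± 0.10 and 1.002 ± 0.10, whereas the co-receptor LRP5 fell by 1.53 ± 0.18 and the R-spondin receptor LGR4 fell by 1.09 ± 0.23. AXIN2, a feedback target of the pathway, changed by -0.02 ± 0.16 and did not pass. In the Notch list 2 of 19 were higher and 4 lower, and 1 was higher when Control replicate 2, 3 or 4 or HGF replicate 3 or 4 was left out. The ligand JAG1 read 7.10, 7.21, 7.25 and 6.72 on the Control arrays and 8.88, 8.43, 8.55 and 8.69 on the HGF arrays, a rise of 1.56 ± 0.14. The gamma-secretase subunits NCSTN and PSEN2 fell by 1.32 ± 0.17 and by 1.10 ± 0.14.

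The Hippo list held changes in both directions among its regulators, with 10 of 22 higher and 6 lower. TEAD4, a DNA-binding partner of YAP1, rose by 1.90 ± 0.15, the kinase STK4 by 1.58 ± 0.10 and YAP1 by 0.48 ± 0.13. The scaffolds WWC2 and WWC1 fell by 1.72 ± 0.11 and by 1.50 ± 0.04. The targets CCN1 and CCN2 moved apart. CCN1 read 13.12, 12.95, 13.04 and 12.92 on the Control arrays and 14.22, 14.34, 14.57 and 14.43 on the HGF arrays, a difference of 1.38 ± 0.09, and CCN2 read 9.10, 8.89, 8.91 and 9.12 on the Control arrays and 7.54, 7.51, 7.83 and 7.78 on the HGF arrays, a difference of -1.34 ± 0.10. In the BMP list 4 of 16 were higher and 5 lower. Without Control replicate 2 or 4, or HGF replicate 2 or 3, 3 were lower, and with median centring 2 were. BMP2 rose by 2.64 ± 0.10, BMP7 by 0.88 ± 0.07 and the target ID1 by 0.62 ± 0.09, while the inhibitor SMAD6 fell by 0.62 ± 0.18. Guidance cues were 6 higher and 6 lower of 26. SEMA3C rose by 2.52 ± 0.07 and its receptor family member PLXNA2 by 1.68 ± 0.12, while the Robo ligand SLIT3 fell by 1.41 ± 0.13.

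Transcription factors of kidney epithelium were more often lower than higher. Of 21 measured 8 were lower (38.1%, against 27.7% of all genes) and 3 higher (14.3%, against 28%), with a median change of -0.187. Without the filter on dim probe sets 7 of 31 were lower and 3 higher, and the median was -0.00454. The highest change in the list, 2.06, was of a member with a group mean under 6. PAX8, which specifies the nephron lineage, read 9.36, 9.10, 9.13 and 9.01 on the Control arrays and 7.44, 7.52, 7.67 and 7.67 on the HGF arrays, a difference of -1.57 ± 0.11. TFAP2B, IRX5 and IRX3, factors of the tubule segments, fell by 1.48 ± 0.17, by 1.31 ± 0.06 and by 0.91 ± 0.06, and the epithelial ETS factors ELF3 and EHF fell by 0.98 ± 0.13 and by 0.58 ± 0.06. GATA3, of the collecting duct lineage, rose by 0.81 ± 0.24. SOX9 (-0.21 ± 0.12) did not pass.

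HOX genes and their cofactors, which record position along the body axis, were 8 lower and 2 higher of 14 (median -0.22). HOXA5 read 10.97, 11.25, 11.13 and 11.26 on the Control arrays and 9.16, 9.09, 9.08 and 8.96 on the HGF arrays, a difference of -2.09 ± 0.07. HOXA2 fell by 1.11 ± 0.13, HOXC8 fell by 0.82 ± 0.18, HOXB2 fell by 0.78 ± 0.08 and HOXB7 fell by 0.52 ± 0.09. MEIS2 and HOXA4 rose by 0.86 ± 0.13 and 0.57 ± 0.10, although another HOXA4 probe set did not pass (0.44).

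In the list of ETS factors and their partners, which does not hold ELF3 and EHF, 3 were higher and 1 lower of 16, and 2 were lower without Control replicate 4 or HGF replicate 4. ELK3, a ternary complex factor, rose by 2.38 ± 0.05 and ETS2 by 0.80 ± 0.18, and the repressor ETV6 fell by 0.92 ± 0.12. ETV4 (0.44 ± 0.26, adjusted p = 0.168) and ETV5 (0.08 ± 0.07, adjusted p = 0.312), known targets of receptor tyrosine kinases, did not pass. Of 23 nuclear receptors and coregulators 5 were higher and 8 lower. The glucocorticoid receptor NR3C1 read 9.11, 9.25, 9.02 and 9.12 on the Control arrays and 11.44, 11.34, 11.13 and 11.21 on the HGF arrays, a rise of 2.16 ± 0.16, and PPARG rose by 1.33 ± 0.06. NR2F6 fell by 1.70 ± 0.21, NR2F2 fell by 1.16 ± 0.16 and the coactivator NCOA2 fell by 1.18 ± 0.06.

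Clock, MYC and chromatin lists held a few larger changes. In the clock list 4 of 14 were higher and 3 lower, with the repressors BHLHE41 and NFIL3 up by 2.10 ± 0.07 and 1.75 ± 0.14 and CRY1 at -1.003 ± 0.11. MYC itself read 9.56, 9.61, 9.90 and 9.70 on the Control arrays and 10.83, 11.09, 11.19 and 11.09 on the HGF arrays, a rise of 1.36 ± 0.11. CIP2A, which stabilises MYC protein, rose by 1.35 ± 0.09 and MLX by 1.03 ± 0.07, and in the whole MYC list 5 of 14 were higher and 4 lower. Chromatin regulators were 17 lower and 8 higher of 49. HMGA1, the maintenance methyltransferase DNMT1 and the Polycomb methyltransferase EZH2 rose by 1.48 ± 0.19, 1.31 ± 0.07 and 1.24 ± 0.10. Another Polycomb subunit, EED, fell by 1.28 ± 0.05, and the SWI/SNF subunits SMARCD3 and SMARCA2 fell by 1.83 ± 0.14 and by 1.38 ± 0.06.

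Genes of ribosome production that were called were mostly higher, by small amounts. Of 56 ribosome biogenesis genes 29 rose (51.8%) and 3 fell (5.36%), and the median over the list was 0.163. POLR3G, a subunit of RNA polymerase III, read 6.61, 6.90, 6.44 and 7.01 on the Control arrays and 8.24, 8.04, 8.97 and 8.20 on the HGF arrays, a rise of 1.62 ± 0.18. The processing factors WDR12 and WDR75 rose by 1.18 ± 0.10 and 1.10 ± 0.08, and the box C/D proteins FBL and NOP58 by 0.72 ± 0.05 and 0.65 ± 0.10. PES1, which works in 1 complex with WDR12, fell by 0.60 ± 0.06. Nucleolin (NCL) changed by -0.03 ± 0.04 and did not pass. Components of the mitochondrial ribosome and import machinery were 37 higher and 13 lower of 66 (median 0.233). MRPL1 rose by 1.20 ± 0.07, the import chaperone TIMM8B by 1.02 ± 0.09, and MRPL17 by 0.73 ± 0.07, while DNAJC19 fell by 0.64 ± 0.07. None of the 66 passed the 2-fold treat test, against 8.63% of all genes.

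Translation factors went both ways by subunit, 19 higher and 17 lower of 47 (11 lower with median centring). EIF4EBP1, the cap-binding inhibitor that mTORC1 phosphorylates, read 9.86, 9.54, 9.62 and 9.54 on the Control arrays and 12.37, 12.43, 12.44 and 12.60 on the HGF arrays, a rise of 2.82 ± 0.08. The EIF2 subunits EIF2S2 and EIF2S1 rose by 1.38 ± 0.06 and 0.70 ± 0.05. Within the EIF3 complex EIF3B and EIF3J rose by 0.76 ± 0.07 and 0.54 ± 0.05, and EIF3D, EIF3F and EIF3L fell by 0.63 ± 0.09, by 0.53 ± 0.06 and by 0.43 ± 0.05. The elongation factor EEF2 fell by 0.21 ± 0.04. Spliceosome and hnRNP genes were 23 higher and 19 lower of 61. RBFOX2, a splicing regulator, rose by 1.25 ± 0.07 and the U1 protein SNRPA by 1.11 ± 0.10, and HNRNPU fell by 0.99 ± 0.06. The epithelial splicing regulator ESRP1 changed by 0.03 ± 0.09 and did not pass.

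Protein breakdown genes leaned downward. Of 39 proteasome genes 17 were lower and 5 higher (median -0.0946). PSMB9, the immunoproteasome subunit, read 11.65, 11.46, 11.51 and 11.69 on the Control arrays and 9.70, 9.97, 10.23 and 10.02 on the HGF arrays, a difference of -1.60 ± 0.09. The activator subunits PSME1 and PSME2 fell by 0.61 ± 0.10 and by 0.86 ± 0.06, and the ATPases PSMC5 and PSMC4 fell by 0.99 ± 0.06 and by 0.89 ± 0.06. The assembly chaperone PSMG1 rose by 0.46 ± 0.05. Autophagy genes were 17 lower and 8 higher of 38 (median -0.187). All 5 measured ATG8 family members (GABARAP, GABARAPL1, GABARAPL2, MAP1LC3A, MAP1LC3B), which coat the autophagosome, were lower. MAP1LC3B read 13.29, 13.24, 13.23 and 13.35 on the Control arrays and 12.20, 12.27, 12.21 and 12.25 on the HGF arrays, a difference of -1.05 ± 0.04, and GABARAPL1 fell by 1.11 ± 0.04. UVRAG fell by 1.23 ± 0.07. The receptors BNIP3L, for mitochondria, and SQSTM1 rose by 1.31 ± 0.06 and 0.97 ± 0.15.

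The lysosomal list was called both ways, 22 lower and 18 higher of 52. The share called was 76.9%, against 55.7% of all genes and 75.1% of genes at a log2 level of 10 to 12. Protective protein CTSA read 9.49, 9.34, 9.62 and 9.32 on the Control arrays and 7.14, 7.32, 7.98 and 7.75 on the HGF arrays, a difference of -1.90 ± 0.16. Cathepsin S (CTSS), the lipase LIPA and the cholesterol carrier NPC2 fell by 1.89 ± 0.07, by 1.85 ± 0.14 and by 1.15 ± 0.05. NPC1, its membrane partner, rose by 1.75 ± 0.12, cathepsin K (CTSK) by 1.75 ± 0.12 and cathepsin D (CTSD) by 1.04 ± 0.06. Chaperones (16 higher and 14 lower of 43), translocation and N-glycosylation genes (17 and 16 of 54) and coat and Golgi traffic genes (20 and 14 of 54) had medians between -0.0146 and 0.0396. Their largest changes measured on both sides were 1.43 ± 0.08 for the heat shock cochaperone DNAJB1, 1.44 ± 0.04 for the signal peptidase subunit SPCS3 and -1.78 ± 0.14 for the GTPase ARF5. DNAJB4 fell by 0.98 ± 0.07, the glucosyltransferase ALG6 fell by 1.21 ± 0.06 and the coat subunit SEC24D rose by 1.41 ± 0.07.

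Genes for the oxidative breakdown of fatty acids and amino acids were more often lower than higher. Of 49 fatty acid oxidation and peroxisome genes 27 were lower (55.1%) and 5 higher (10.2%), with a median change of -0.238. ECHDC2 read 8.97, 8.83, 9.005 and 8.92 on the Control arrays and 6.47, 6.36, 6.96 and 7.72 on the HGF arrays, a difference of -2.05 ± 0.21. SCP2, a peroxisomal lipid carrier and thiolase, and PEX19, the chaperone of peroxisomal membrane proteins, fell by 1.91 ± 0.06 and by 1.80 ± 0.09. CPT2, the inner membrane step of carnitine import, fell by 1.08 ± 0.07, and DECR1, needed for unsaturated fatty acids, fell by 1.16 ± 0.06. The acyl-CoA synthetase ACSL1 rose by 1.46 ± 0.09.

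Amino acid catabolism was 22 lower and 5 higher of 38 (57.9% and 13.2%), with a median of -0.29. Branched-chain steps held both signs. The cytosolic transaminase BCAT1 read 9.21, 9.07, 9.20 and 8.83 on the Control arrays and 11.95, 11.96, 12.10 and 12.16 on the HGF arrays, a rise of 2.97 ± 0.08, whereas downstream BCKDHB, IVD, PCCA and HIBADH fell by 0.66 ± 0.06, by 1.06 ± 0.08, by 0.66 ± 0.11 and by 0.79 ± 0.04. The aldehyde dehydrogenases ALDH4A1, of proline breakdown, and ALDH7A1, of lysine breakdown, fell by 1.30 ± 0.12 and by 1.12 ± 0.06, though 1 of 4 further ALDH4A1 probe sets rose (0.66). The alanine transaminase GPT, with a group mean under 6, fell by 1.93 ± 0.27.

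**Figure D4:**
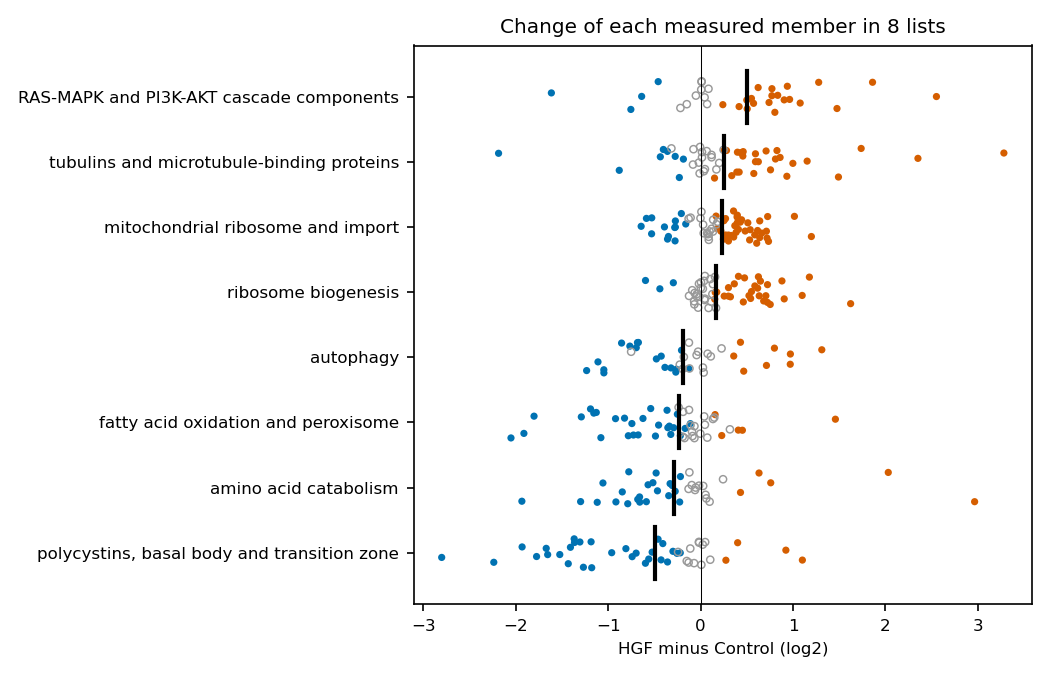
Change with HGF (log2) of every measured member of 8 gene lists. Filled points passed an adjusted p of 0.05, open points did not, and the black bar is the list's median; the medians of the 4 upper lists lie above 0 and those of the 4 lower lists below 0.

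Biosynthetic metabolism showed single large rises within mixed lists. Mitochondrial folate enzymes rose together. MTHFD2 read 7.60, 7.28, 7.31 and 7.41 on the Control arrays and 11.50, 11.44, 11.34 and 11.44 on the HGF arrays, a rise of 4.03 ± 0.08 (adjusted p = 3.84e-14). ALDH1L2, SHMT2 and MTHFD1L rose by 2.61 ± 0.16, 1.98 ± 0.06 and 1.52 ± 0.07, while the cytosolic ALDH1L1 fell by 1.64 ± 0.11 and SHMT1 (0.02 ± 0.06) did not pass. Over the one-carbon and polyamine list 14 of 35 were higher and 12 lower, and in nucleotide synthesis 18 of 39 were higher and 12 lower. The salvage kinases UCK2 and TK1 rose by 2.11 ± 0.15 and 1.42 ± 0.12, AK4 by 1.94 ± 0.09 and NME1 by 1.46 ± 0.07, and ADSS1 fell by 1.39 ± 0.09. Of the ribonucleotide reductase subunits RRM1 rose by 0.75 ± 0.08 and RRM2 fell by 0.55 ± 0.06.

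The deepest fall in the pyruvate and TCA cycle list lay at the entry of pyruvate to the mitochondrion. MPC1, a subunit of the mitochondrial pyruvate carrier, read 13.38, 13.42, 13.38 and 13.45 on the Control arrays and 10.37, 10.34, 10.69 and 10.50 on the HGF arrays, a difference of -2.93 ± 0.06 (adjusted p = 1.19e-13). Its partner MPC2 fell by 0.76 ± 0.05. The pyruvate dehydrogenase phosphatase PDP1 and the E2 subunit DLAT rose by 2.20 ± 0.10 and 1.37 ± 0.08. In the whole list 15 of 34 were higher and 11 lower.

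Fatty acid and glycerolipid synthesis genes were 19 higher and 11 lower of 47, and 8 rose and 3 fell by more than 2-fold in the treat test. FADS3, a desaturase family member, read 7.06, 6.83, 6.98 and 6.20 on the Control arrays and 10.10, 10.27, 10.30 and 10.21 on the HGF arrays, a rise of 3.45 ± 0.18. The phosphatidate phosphatase LPIN1 rose by 2.28 ± 0.13 and ATP citrate lyase (ACLY) by 1.67 ± 0.08, and FASN by 0.64 ± 0.13. AGPAT1 fell by 2.02 ± 0.15 while its relative AGPAT2 rose by 1.25 ± 0.09. Choline kinase CHKA, with a group mean under 6, changed by -3.08 ± 0.11.

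Microtubule genes were more often higher than lower. Of 50 tubulins and microtubule-binding proteins 26 were higher and 8 lower (median 0.252). TUBB2A read 10.27, 10.62, 10.72 and 10.84 on the Control arrays and 14.16, 13.98, 13.62 and 13.82 on the HGF arrays, a rise of 3.28 ± 0.14. TUBB and TUBG1 rose by 1.49 ± 0.08 and 0.59 ± 0.10, and the binding protein MAP7D1 by 1.74 ± 0.19, while its relative MAP7 fell by 0.88 ± 0.10. Tubulin genes are near-identical in parts, so the probe sets may share signal.

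Intermediate filament genes were mostly not called (5 higher and 2 lower of 18). The linkers PLEC and PPL and lamin A (LMNA) rose by 1.68 ± 0.18, 1.67 ± 0.07 and 1.29 ± 0.07, vimentin (VIM) by 0.54 ± 0.04, and EVPL fell by 1.03 ± 0.21. A further PLEC probe set did not pass (0.02). KRT18 fell by 0.48 ± 0.07, and its partner KRT8 changed by -0.01 ± 0.07 and did not pass. Among annexins, calcium-dependent membrane binders, 6 of 11 were higher and 3 lower. ANXA10 rose by 2.51 ± 0.08 and ANXA5 by 0.94 ± 0.04, and ANXA13, of kidney and gut epithelium, read 10.999, 10.86, 10.88 and 10.89 on the Control arrays and 9.46, 9.51, 9.68 and 9.41 on the HGF arrays, a difference of -1.39 ± 0.08.

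At the cell surface, caveolar and tetraspanin genes were 9 higher and 12 lower of 27. TSPAN1 read 11.34, 11.26, 11.16 and 11.28 on the Control arrays and 8.32, 7.45, 8.48 and 7.92 on the HGF arrays, a difference of -3.21 ± 0.16. CAVIN3 and TSPAN8 rose by 2.29 ± 0.06 and 1.59 ± 0.05. Hyaluronan, proteoglycan and glycosaminoglycan genes were 16 higher and 11 lower of 44. Versican (VCAN), a large chondroitin sulfate proteoglycan, read 12.97, 13.23, 13.13 and 13.27 on the Control arrays and 9.90, 10.21, 10.43 and 10.42 on the HGF arrays, a difference of -2.91 ± 0.13. The hyaluronan receptor CD44 rose by 1.52 ± 0.10 and the sulfatase SULF2 by 1.28 ± 0.11 (another SULF2 probe set, at 0.23, did not pass).

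Ion transport genes were 12 higher and 11 lower of 45. CLIC3 rose by 3.04 ± 0.10, the calcium pump ATP2B4 by 2.75 ± 0.07 and FXYD5, a modulator of the sodium pump, by 2.26 ± 0.09. The kidney modulator FXYD2 read 14.03, 13.91, 13.99 and 13.92 on the Control arrays and 12.64, 12.38, 13.04 and 12.97 on the HGF arrays, a difference of -1.21 ± 0.11, and the pump's beta subunit ATP1B1 fell by 0.75 ± 0.08. The gap junction gene GJB1 fell by 1.63 ± 0.09.

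The list with the largest share of lower members held genes of the primary cilium, the sensory antenna of tubule cells. The kidney epithelial identity list, described further on, came close with 62.5% lower. Without the filter on dim probe sets the medians of the 2 lists were -0.256 (cilium) and -0.274 (identity). Of 44 polycystin, basal body and transition zone genes 29 were lower (65.9%, against 27.7% of all genes) and 4 higher. The list's median was -0.492, and 7 fell by more than 2-fold in the treat test. The 3 deepest falls measured on both sides were of proteins of the transition zone, the gate at the base of the cilium. TCTN2 read 10.56, 10.50, 10.53 and 10.64 on the Control arrays and 8.20, 8.19, 8.41 and 8.49 on the HGF arrays, a difference of -2.24 ± 0.08 (adjusted p = 1.37e-11). B9D1 read 11.69, 11.39, 11.51 and 11.24 on the Control arrays and 9.62, 9.65, 9.79 and 9.67 on the HGF arrays, a difference of -1.77 ± 0.08. TMEM67 read 10.61, 10.56, 10.47 and 10.75 on the Control arrays and 8.81, 8.94, 8.90 and 9.05 on the HGF arrays, a difference of -1.67 ± 0.08. In none of these 3 did an HGF array reach a Control array. RPGRIP1L and NPHP4, each with a group mean under 6, fell by 2.80 ± 0.10 and by 1.93 ± 0.18. TMEM231, TMEM138 and TMEM17 fell by 1.41 ± 0.14, by 1.27 ± 0.14 and by 1.18 ± 0.10. The HGF arrays of TMEM231 read 3.638 to 3.796, under the filter level of 4, where the size of a change depends on the background estimate.

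Other parts of the cilium list were lower too. The calcium channel PKD2, polycystin 2, read 9.50, 9.08, 9.02 and 8.95 on the Control arrays and 7.12, 8.25, 7.84 and 7.62 on the HGF arrays, a difference of -1.43 ± 0.18, and PKD1 lay near the filter level (-0.07 ± 0.06, not passed). Of the BBSome, the coat that carries membrane cargo in the cilium, TTC8, BBS9 and BBS5 fell by 1.36 ± 0.11, by 1.31 ± 0.12 and by 0.60 ± 0.11, while BBS2 rose by 0.40 ± 0.08 and BBS4 and BBS7 did not pass (-0.24 ± 0.11 and 0.10 ± 0.07). The Hedgehog transducer SMO fell by 1.18 ± 0.14. RPGR fell by 1.65 ± 0.19 on its brightest probe set and rose by 0.69 on 1 of 3 others. CEP83, a distal appendage protein, and AHI1 rose by 1.10 ± 0.11 and 0.92 ± 0.17.

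**Figure D5:**
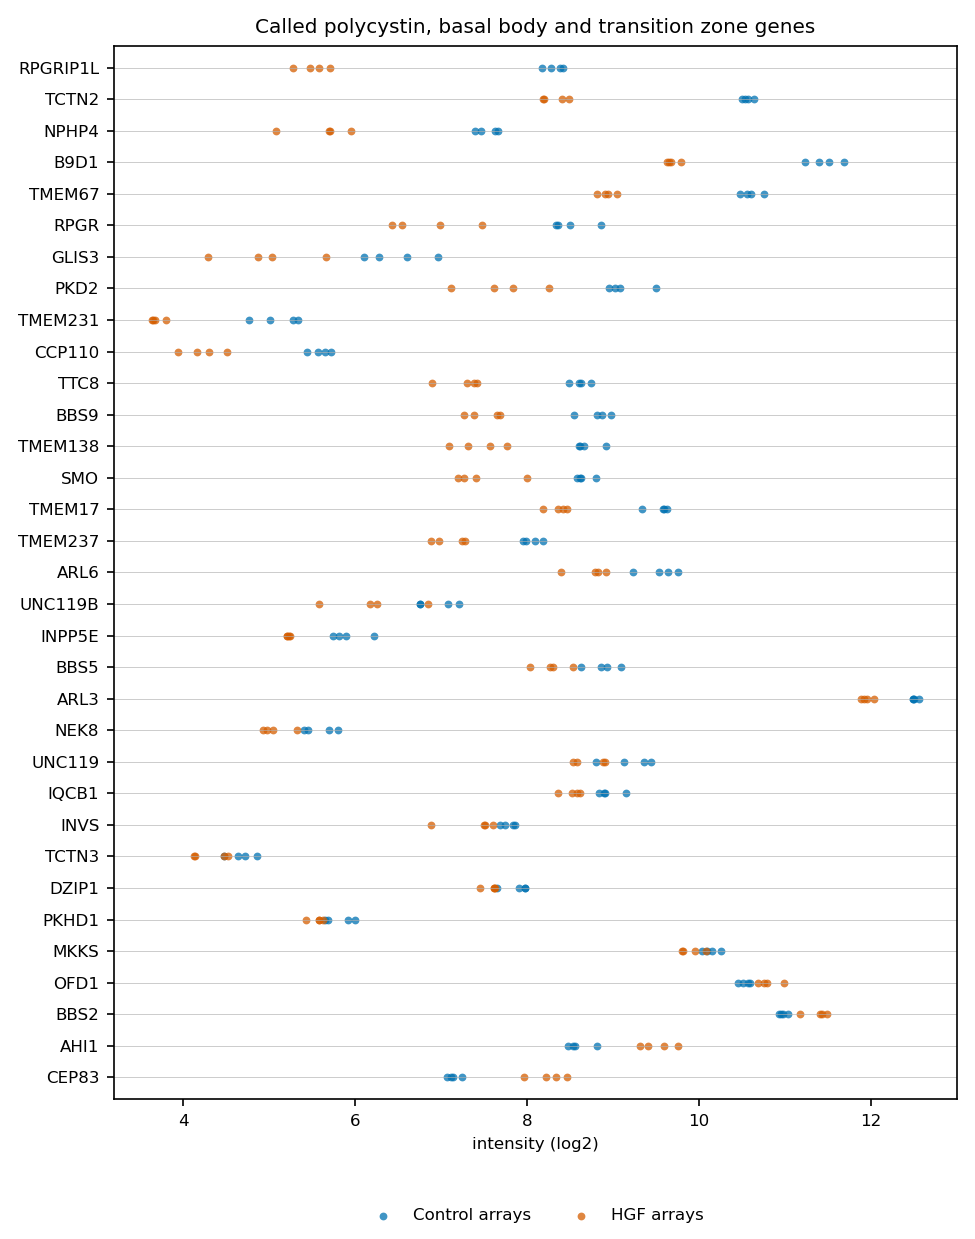
Log2 intensity on each of the 4 Control arrays (blue) and 4 HGF arrays (orange) for the 33 called members of the polycystin, basal body and transition zone list, ordered by change. The 29 lower genes stand above the 4 higher ones, and the widest gaps between the groups are those of RPGRIP1L and TCTN2. RPGRIP1L has a group mean under 6.

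Of 16 measured complement and coagulation genes 9 were lower and 4 higher. The complement genes C3, C1S, C1R, C2 and CFI fell, with C3 at -1.92 ± 0.17 and C1S at -1.66 ± 0.08. CFI, the protease that inactivates C3b, read 12.83, 13.07, 12.99 and 13.08 on the Control arrays and 10.37, 10.25, 10.83 and 10.76 on the HGF arrays, a difference of -2.44 ± 0.12. On 2 of 4 further C2 probe sets the change was higher (0.62 and 0.37). Tissue factor (F3), which starts coagulation, read 11.64, 11.65, 11.59 and 11.64 on the Control arrays and 14.75, 14.69, 14.70 and 14.71 on the HGF arrays, a rise of 3.08 ± 0.07. The protein C receptor PROCR, with a group mean under 6, rose by 3.02 ± 0.12 and the complement regulator CD59 by 0.65 ± 0.05. The complement inhibitor SERPING1 fell by 1.64 ± 0.12, and the fibrinogen chain FGB fell by 0.15 ± 0.05, a call that was lost without Control replicate 2 or 4 or HGF replicate 4 (-0.135 to -0.125).

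DNA repair genes were 26 higher and 15 lower of 71. The Fanconi anaemia gene FANCD2 read 6.68, 7.15, 6.61 and 7.24 on the Control arrays and 8.72, 8.85, 8.49 and 8.59 on the HGF arrays, a rise of 1.74 ± 0.15, and BRCA2, the helicase RECQL and the checkpoint kinase CHEK1 rose by 1.59 ± 0.13, 1.38 ± 0.07 and 1.17 ± 0.12. Excision repair went the other way in part, with XPA and XPC at -2.44 ± 0.20 and -0.60 ± 0.08. XPA had a group mean under 6. TP53BP1, which steers repair of double-strand breaks, fell by 1.16 ± 0.09.

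Identity genes of kidney epithelium were 10 lower and 1 higher of 16 (median -0.406). The 1 that rose was E-cadherin (CDH1), by 0.60 ± 0.09, with no overlap between the groups. Ksp-cadherin (CDH16), a kidney-specific cadherin, read 10.88, 10.67, 10.93 and 10.59 on the Control arrays and 7.60, 7.29, 8.20 and 8.002 on the HGF arrays, a difference of -2.997 ± 0.19, and 1 of 2 further CDH16 probe sets rose by 0.50. MUC1, the apical mucin, fell by 1.27 ± 0.16, occludin (OCLN) fell by 0.78 ± 0.06 and EPCAM fell by 0.73 ± 0.11. PAX2 (-0.0045 ± 0.05) and TJP1 (0.01 ± 0.07) did not pass. The summed intensity of all 16 identity genes ran from 154000 to 164000 on Control and from 108000 to 125000 on HGF arrays. In such a linear sum the brightest members weigh most. Collecting duct and loop of Henle genes were 1 higher (ATP6V1B1, 0.61 ± 0.09) and 2 lower of 8, with AQP3 at -0.23 ± 0.06 and SCNN1B at -0.81 ± 0.18.

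Of 7 measured fibroblast and smooth muscle markers 1 was lower (PDGFRB, -0.26 ± 0.07), and their summed intensity ran from 542 to 591 on Control and from 498 to 583 on HGF arrays. Of 4 endothelial markers 0 were called, and CDH5 and PECAM1 had Control means of 8.23 and 7.15, with sums over the list of 461 to 504 and 468 to 532. By unadjusted p under 0.05 0 of them passed. Of 4 leukocyte markers 2 were higher and 1 lower, with sums of 254 to 265 on Control and 334 to 555 on HGF arrays, which did not overlap. The call of the lower one was lost without Control replicate 2 or HGF replicate 3. CD68, a lysosomal protein of macrophages, read 3.18, 3.31, 3.27 and 3.25 on the Control arrays and 6.99, 4.91, 5.11 and 8.12 on the HGF arrays, and CD4 rose by 0.55 ± 0.11 (another probe set, at 0.06, did not pass). The HGF arrays spread widely for CD68, and the general leukocyte marker PTPRC was below the filter. The part of such cells in the results was not tested.

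Some bright genes held steady within narrow bounds. Of 5913 genes with a mean level of at least 8, 948 had a 95% interval within 0.25 of no change. The narrowest were the dynactin subunit DCTN2 (-0.07 to 0.06), the ribosome-bound scaffold RACK1 (-0.07 to 0.05), the ribosomal protein RPS3 (-0.08 to 0.05), and the loci LOC608162 (-0.06 to 0.06) and LOC611067 (-0.07 to 0.08). LOC611067 was called lower under quantile normalization (-0.0927). A further DCTN2 probe set fell by 0.21. Probe sets of 1 gene did not always tell the same story. Of 5332 genes with several kept probe sets 2301 (43.2%) had all of them called in 1 direction, 1206 had none called, 1723 had some called and some not, and 102 (1.91%) had calls in both directions.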

How the data were processed

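RNA of MDCK cells was measured on 15 Affymetrix canine arrays, 1 sample each, grouped by the titles of the labels. The authors deposited 1 linear intensity per probe set and array, made with GCRMA per the submitters' processing notes, a method that corrects background from probe sequence, quantile normalizes the arrays and summarises probes. Its version and the annotation are not given in the sources used here. Intensities ran from 1.97 to 104385, and this summary presses dim probe sets towards a floor, which makes large folds there imprecise. An array gives no read depth, so the number of arrays limits the precision.

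The log2 of the intensities was taken with nothing added. Of 43035 probe sets, 111 control probe sets were left out and those with a log2 of at least 4 on at least 3 of 15 arrays were kept. Genes were named from GEO's platform annotation, which can be old. Of the probe sets that are not controls 29254 had 1 symbol, 439 had several and were not named, and 13231 had no listed symbol. A gene was read on the probe set with the highest mean over the 15 arrays.

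A linear model with 1 mean per group was fitted over all 15 arrays with limma 3.58.1 in R 4.3.3 (eBayes with a variance trend, two-sided, Benjamini-Hochberg over all probe sets kept, threshold 0.05). Values after ± are standard errors of the fit unless given as SD. The fit was tested on simulated data. Genes named are the largest changes with both group means at least 6 whose arrays did not overlap, and the largest with both means at least 10. Also named are those crossing from under 4 to at least 6, the largest changes of each list with both means at least 6, and the steadiest genes at 8 or more. Genes outside that rule, among them list members that did not pass, were chosen after their values were seen. The gene lists and the comparison were chosen with earlier results of these data known, and no list was tested as a set. Alternatives were other filters, a pseudocount of 32, quantile normalization, median centring, fewer arrays, no variance trend, a replicate block, another probe set per gene and leaving out each replicate. A further gene list is not reported here. Some list members whose call changed without 1 array, or under another setting or probe set, were left unnamed after that was seen, so the share of named genes that kept their call is not that of all genes.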

Additional observations from a re-analysis of the deposited data

Results flagged for a closer look

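Of the 684 sets of 4 arrays behind the 342 genes named (Control and HGF for each), 50 held 1 array far from the other 3, with a gap to its nearest neighbour that, as a share of the range of the set, passed Dixon's 95% limit. Chance alone puts about 1 in 20 sets past that limit. All values are log2 intensities, each followed by the lowest and the highest of the other 3 arrays of its group.

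Control replicate 1 stood above the others of its group in AQP3 at 8.178 (others 7.986 to 7.992), CHEK1 at 7.035 (others 6.438 to 6.531), NPC2 at 14.443 (others 14.307 to 14.316), OSCP1 at 10.259 (others 9.881 to 9.913), PECAM1 at 7.162 (others 7.142 to 7.144), PLXNA2 at 9.335 (others 9.178 to 9.199), PSME2 at 11.974 (others 11.812 to 11.815), SNAI2 at 8.637 (others 7.790 to 7.922) and TEX26 at 9.281 (others 8.817 to 8.886). For Control replicate 1 the low values were BCKDHB at 12.522 (others 12.657 to 12.672), CD4 at 7.307 (others 7.399 to 7.414) and CDH5 at 8.081 (others 8.263 to 8.296). Control replicate 2 stood above the others of its group in PKD1 at 4.747 (others 4.444 to 4.448). For Control replicate 2 the low values were F2RL1 at 8.268 (others 8.543 to 8.572). Control replicate 3 stood below the others of its group in BRCA2 at 6.685 (others 7.003 to 7.062), PTGS2 at 5.763 (others 6.163 to 6.180), RECQL at 8.309 (others 8.459 to 8.485), SEC24D at 9.757 (others 9.818 to 9.828) and TMEM17 at 9.339 (others 9.579 to 9.625). Control replicate 4 stood above the others of its group in RGS17 at 8.239 (others 7.563 to 7.669), TMEM138 at 8.918 (others 8.603 to 8.655) and WDR75 at 9.991 (others 9.822 to 9.850). For Control replicate 4 the low values were CD44 at 10.901 (others 11.218 to 11.244), DEPDC1 at 3.042 (others 3.444 to 3.502), HMGA1 at 12.305 (others 12.734 to 12.790) and SHMT1 at 5.902 (others 6.018 to 6.021).

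HGF replicate 1 stood above the others of its group in TEX26 at 3.035 (others 2.990 to 2.996). For HGF replicate 1 the low values were C1R at 7.011 (others 7.214 to 7.236), LGR4 at 6.529 (others 7.555 to 7.621), MTHFD1L at 12.540 (others 12.718 to 12.752), NQO1 at 13.033 (others 13.206 to 13.218), SQSTM1 at 9.685 (others 9.986 to 10.039) and STAT2 at 8.520 (others 8.863 to 8.905). HGF replicate 2 stood above the others of its group in DSG3 at 9.801 (others 9.426 to 9.481), EHF at 9.903 (others 9.808 to 9.822), LOC483842 at 3.570 (others 3.028 to 3.088) and MPC2 at 12.524 (others 12.411 to 12.426). For HGF replicate 2 the low values were DNAJB1 at 10.180 (others 10.330 to 10.355) and SNAI2 at 13.680 (others 13.904 to 13.927). HGF replicate 3 stood above the others of its group in CLTRN at 3.746 (others 3.219 to 3.279), MAP2K2 at 7.966 (others 7.745 to 7.765) and S100A14 at 13.542 (others 13.517 to 13.521). For HGF replicate 3 the low values were MME at 2.549 (others 3.775 to 3.784) and NFIL3 at 10.983 (others 11.256 to 11.301). HGF replicate 4 stood above the others of its group in ATP2B4 at 12.829 (others 12.599 to 12.635), GSK3B at 9.583 (others 9.221 to 9.241), SCNN1A at 4.176 (others 4.172 to 4.172) and TMEM231 at 3.796 (others 3.638 to 3.664). For HGF replicate 4 the low values were FGB at 5.773 (others 5.833 to 5.835) and STK4 at 7.998 (others 8.351 to 8.387).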

How the results depend on the processing

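Counts of probe sets stayed within 1.5 times of the values given under every alternative run. The 13839 called (6556 higher and 7283 lower) ranged from 12848 with the stricter filter to 13924 with the replicate block, and the 2111 past a 2-fold change from 1657 with a pseudocount of 32 to 2157 with median centring. Leaving out 1 array gave 12969 to 13374 called and 1982 to 2061 past 2-fold. Median centring turned the split to 7182 higher and 6421 lower. Same-numbered arrays did not deviate together (correlations of -0.247, -0.00304, 0.205 and -0.0538), and only replicate 3 correlated best with its own number, so the numbers were not taken as pairs. With the replicate block 13924 probe sets were called (6592 higher and 7332 lower), and 2093 passed 2-fold.

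The first actin 3' minus 5' difference lay between -0.771 and -0.703 without 1 array. Of the 49 lists, the total called, both directions together, moved by more than 1.5 times for 2. Taken by direction, the higher or the lower count moved that far for 14 lists under at least 1 alternative, and for 6 (BMP, Wnt, spliceosome, chaperones, translocation and ion transport) the larger of both counts changed sides under at least 1. Called fibroblast and smooth muscle markers were 1 as given, 0 with the stricter filter or median centring, and 1 to 2 without 1 array. Called leukocyte markers were 3 as given and 1 with the stricter filter.

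Under quantile normalization LOC611067, given among the steadiest genes, turned to -0.0927 and was called lower (limma, adjusted p = 0.0353), and with the probe set of median change C2 turned to 0.0623. CHUK lost its call under no filter, quantile normalization, the 8 arrays alone and the replicate block. FGB lost its call under no filter, quantile normalization and median centring. PDGFRB lost its call with median centring (-0.213), and CD4, HOXA4, MAP2K1, PLEC and SULF2 lost theirs with the probe set of median change. The causes were not tested. Dim probe sets limit the folds of genes near the filter.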
